A study of Mus musculus with 17 samples.

Results

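Aquaporins are membrane channels that let water cross cell membranes along osmotic gradients, and some of them also pass glycerol, ammonia or hydrogen peroxide. Each subunit folds into its own pore, and a pair of short signature motifs, most often asparagine, proline and alanine, meets in the middle of that pore. In the heart, AQP1 is known mainly from the endothelium of blood vessels, AQP4 from the membranes of muscle cells and AQP7 from capillary and fat cell membranes, where it carries glycerol.

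The 5 genes described here, Aqp1, Aqp4, Aqp7, Aqp8 and Aqp11, were found by gene symbol among 41126 genes of mouse heart RNA-seq. They were selected on their raw fragments in the same 17 libraries, in view of their levels, so their levels are given as a description. No p-value given below for the 5 genes is independent of that selection. The large differences of Aqp4 and Aqp8 in TAC 6 week vehicle hearts had been seen when they were selected. No p-value is therefore given for any of the 5 genes in a comparison that uses that group. Counts of calls of the 5 in such comparisons are a description, and nothing is read from them. Of 12 mouse aquaporin genes in the tables, these 5 passed the filter on low counts and the other 7 did not.

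Hearts came from C57BL/6 mice on ordinary chow under a light-dark cycle of 12 h each, and were taken at about zeitgeber hour 10. The groups were Control (n = 3), and TAC at 1 week with vehicle (n = 4) or SR9009 (n = 4) and at 6 weeks with vehicle (n = 3) or SR9009 (n = 3), dosed every day. TAC, transverse aortic constriction, narrows the aorta and loads the left ventricle with pressure, and SR9009 is an agonist of the REV-ERB nuclear receptors, which repress transcription in the circadian clock. The labels give no age, sex or genetic change, no week for Control, and no word on sham surgery or vehicle in Control. TAC, age, length of dosing and batch therefore cannot be told apart in any comparison with Control or between both times. Nothing in the labels says that replicates are separate animals. The spread behind each p-value may therefore be technical and covers these libraries alone.

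Library totals were 8.68 to 15.81 M (mega) fragments, with 9.68 to 10.14 M in Control and 13.35 to 15.81 M in TAC 6 week vehicle. Heart muscle markers (8 genes, Tnnt2, Myl2 and Ryr2 among them) summed to between 30208 and 46055 CPM (fragments scaled to a common library total) in each library, while the summed lung and liver markers stayed at or below 0.46 and 0.832 CPM. TAC 6 week vehicle 1 stood apart from the other 2 libraries of its group in genes other than aquaporins. Its Arntl, the core clock activator also called Bmal1, was at 42.8 CPM against 3.57 and 2.72 CPM, and its Per2, a clock repressor, at 2.28 CPM against 58.9 and 67.2 CPM. Its Myh7, the slow myosin of the stressed heart, was at 561 CPM against 2760 and 3010 CPM. Most results of the 5 genes and of the gene lists that rest on this library are also given without it. Clock genes also differed between whole groups. Arntl was at 8.53 to 16.3 CPM in Control and 13.6 to 22.5 in TAC 1 week vehicle. It was at 7.87 to 13.1 CPM in TAC 1 week SR9009 and 27.5 to 41 in TAC 6 week SR9009. Per2 was at 18.1 to 29, 13.3 to 24.6, 30.2 to 35.3 and 7.66 to 9.55 CPM in the same order of groups. The part of clock state in the comparisons between groups was not tested.

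The gene models of 4 of the 5 channels show how the pore motif differs among them, and 2 windows of 45 coding bases are printed for each, with the 9 bases of the signature in capitals. Aqp1 is on chromosome 6 (55336432 to 55348555, plus strand), Aqp7 on chromosome 4 (41033074 to 41048139, minus strand), Aqp8 on chromosome 7 (123462291 to 123468004, plus strand) and Aqp11 also on chromosome 7 (97724006 to 97738289, minus strand). Coordinates and transcripts are those of GENCODE M21 for mm10, and residues are counted from the first methionine of the longest open reading frame.
Aqp1, residue 76: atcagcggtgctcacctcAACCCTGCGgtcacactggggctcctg
Aqp1, residue 192: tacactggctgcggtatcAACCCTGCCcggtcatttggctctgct
Aqp8, residue 92: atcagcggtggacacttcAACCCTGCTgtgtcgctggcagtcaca
Aqp8, residue 210: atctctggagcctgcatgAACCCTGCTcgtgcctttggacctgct
Aqp7, residue 79: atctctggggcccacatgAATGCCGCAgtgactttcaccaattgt
Aqp7, residue 211: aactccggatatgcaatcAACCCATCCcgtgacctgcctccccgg
Aqp11, residue 99: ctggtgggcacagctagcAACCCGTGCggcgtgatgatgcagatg
Aqp11, residue 216: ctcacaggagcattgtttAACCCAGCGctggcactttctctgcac
Both water channels Aqp1 and Aqp8 read asparagine, proline, alanine at each site. Aqp7, of the glycerol-carrying branch, reads asparagine, alanine, alanine at the first site and asparagine, proline, serine at the second. Aqp11, of the divergent intracellular branch, has cysteine in place of alanine at the first site. The open reading frames were 269 residues long for Aqp1, 303 for Aqp7, 261 for Aqp8 and 271 for Aqp11. In Aqp7 the search for the motif found 3 matches, and the first 2 are shown.

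Aqp1 mRNA was by far the most abundant. Per kilobase of exon, its mean level in Control was 148 ± 8.02 CPM (SD, n = 3), against 10.7 ± 0.865 for Aqp7, 2.99 ± 0.333 for Aqp4, 1.32 ± 0.23 for Aqp8 and 0.109 ± 0.0128 for Aqp11. No ranges of neighbours in this order overlapped in Control. In TAC 6 week vehicle the order was Aqp1 at 140 ± 27 CPM per kilobase, Aqp8 at 11.5 ± 2.77, Aqp7 at 6.07 ± 2.72, Aqp4 at 0.384 ± 0.146 and Aqp11 at 0.0906 ± 0.0247. Aqp8 and Aqp7 did not separate beyond their spread there, since TAC 6 week vehicle 1 had 9.11 CPM per kilobase of Aqp8 and 9.2 of Aqp7. In every library Aqp1 held between 85.8% and 91.5% of the summed level of the 5 genes per kilobase. The Aqp11 gene model includes retained introns, and over its longest coding transcript the Control level was 0.275 CPM per kilobase, still the lowest.

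The other 7 aquaporins were barely detected, which sets the lower edge of the family in these hearts. Aqp3, an aquaglyceroporin of epithelia, had 23 fragments in all, at most 3 in a library. Aqp2, the vasopressin-regulated channel of the kidney, had 17 fragments in all and Aqp9, the glycerol channel of liver, had 15. Aqp6, Aqp5 and Mip, the lens channel, had 5, 4 and 2 fragments, and Aqp12 had 0. The lowest of the 5 described genes, Aqp11, had 4 to 19 fragments per library, 179 in all, against 1613 for Aqp4, 1725 for Aqp8, 4362 for Aqp7 and 59857 for Aqp1.

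**Figure D1:**
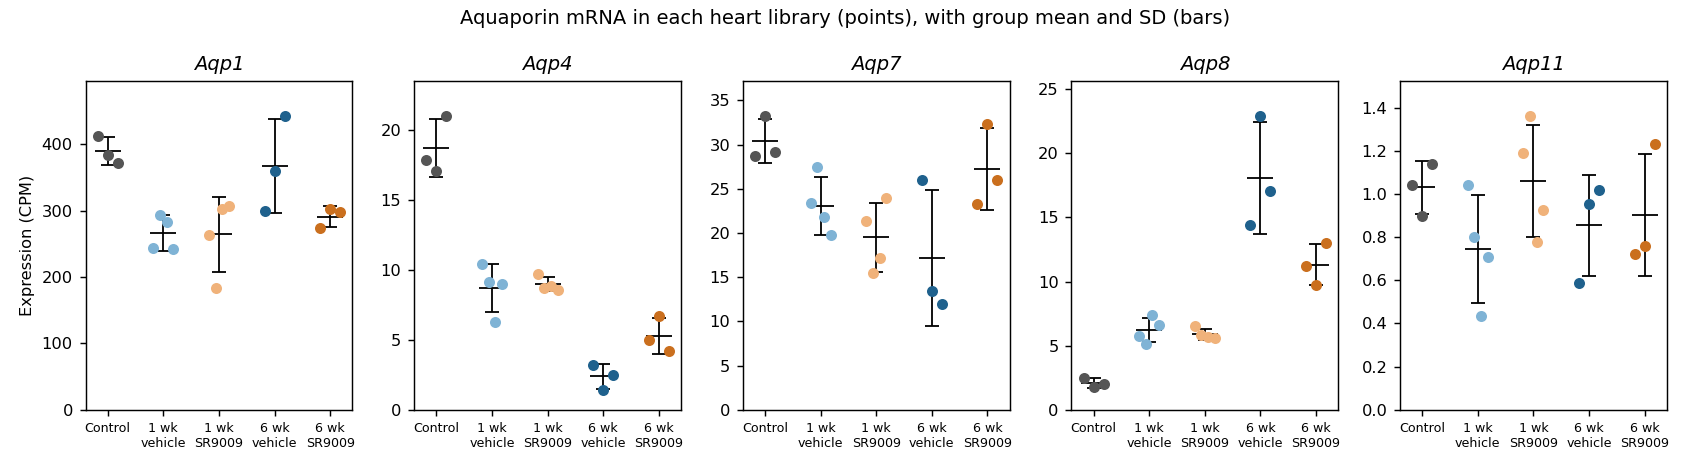
Expression in CPM (vertical axes, linear and starting at 0) of the 5 aquaporins, one panel per gene, in the 17 heart libraries of the 5 groups (horizontal axis). Points are libraries and bars are the group mean ± SD. Aqp4 steps down from 17.1 to 21 CPM in Control to 1.43 to 3.23 CPM in TAC 6 week vehicle, and Aqp8 steps up from 1.8 to 2.5 CPM to 14.4 to 22.9 CPM.

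Aqp4 (chromosome 18, 15389496 to 15410982, minus strand), whose protein is the water channel of astrocyte endfeet and of muscle membranes, was lower in every TAC library than in any Control library. Control libraries had 17.9, 17.1 and 21 CPM. TAC 1 week vehicle libraries had 10.4, 9.17, 6.28 and 9.03 CPM, and TAC 1 week SR9009 libraries had 9.71, 8.73, 8.87 and 8.57 CPM. With vehicle at 6 weeks the libraries had 3.23, 1.43 and 2.52 CPM, and TAC 6 week SR9009 libraries had 4.96, 6.73 and 4.22 CPM. Control was highest, then both 1-week groups, then 6-week SR9009 and last 6-week vehicle, with 1 overlap between neighbours, where TAC 1 week vehicle 3 (6.28 CPM) lay below TAC 6 week SR9009 2 (6.73 CPM). These are few fragments, 18 to 44 per library in TAC 6 week vehicle against 171 to 203 in Control. In whole heart tissue, fewer cells of a type and less RNA per cell cannot be told apart.

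Aqp4 fell at 1 week by 1.10 ± 0.18 on the log2 scale in vehicle hearts (SE; edgeR quasi-likelihood test, Benjamini-Hochberg adjusted p = 0.00163), 2.14-fold, to 8.71 ± 1.73 CPM (SD, n = 4) from 18.7 ± 2.08 (SD, n = 3). It also fell in 1-week SR9009 hearts, by 1.06 ± 0.18 (edgeR adjusted p = 0.0015), and in 6-week SR9009 hearts, by 1.83 ± 0.21 (edgeR adjusted p = 7.85e-05). These comparisons share the Control libraries, which also entered the Aqp4 difference known at selection. Their p-values are not independent of it. The summed cardiomyocyte markers were 44214 to 44690 CPM in Control, 33649 to 41676 in TAC 1 week vehicle, 30208 to 43564 in TAC 1 week SR9009, 38625 to 42506 in TAC 6 week vehicle and 44254 to 46055 in TAC 6 week SR9009. In the first 3 TAC groups the sum lay below Control, while single markers went both ways. Of the 8 markers 1 rose and 2 fell in TAC 1 week vehicle (all genes 8.91% and 5.92%). In TAC 1 week SR9009 1 rose and 2 fell (all genes 11.4% and 8.48%). In TAC 6 week vehicle 1 rose and 1 fell (all genes 10.7% and 9.96%), also without TAC 6 week vehicle 1 (13.1% and 12.1%). The part of these markers in the Aqp4 result was not tested. In TAC 6 week vehicle the level was 2.39 ± 0.908 CPM, a log2 difference of -2.95 ± 0.22 from Control and of -1.85 ± 0.22 from TAC 1 week vehicle. Without TAC 6 week vehicle 1 these were -3.21 and -2.11. The comparison between both SR9009 groups uses no vehicle library, and gave a fall of 0.78 ± 0.20 from 1 to 6 weeks (edgeR adjusted p = 0.025). That last fall missed the threshold without TAC 1 week SR9009 1 (adjusted p = 0.0617), TAC 6 week SR9009 1 (0.0987) or TAC 6 week SR9009 3 (0.124). With the library total as a covariate, the 1-week SR9009 fall was 0.92 with an adjusted p of 0.0576.

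Aqp8 ran the other way. Its protein passes water, ammonia and hydrogen peroxide and is known from liver, pancreas and gut, where it has been placed in the plasma membrane and the inner mitochondrial membrane. Control libraries had 2.5, 1.8 and 1.97 CPM, the lowest of all. TAC 1 week vehicle libraries had 5.77, 5.16, 7.36 and 6.59 CPM, and TAC 1 week SR9009 libraries had 6.51, 5.87, 5.68 and 5.56 CPM. With vehicle at 6 weeks the libraries had 14.4, 22.9 and 17.1 CPM, and TAC 6 week SR9009 libraries had 11.2, 9.77 and 13 CPM. The order was the reverse of that of Aqp4, and the steps from Control to both 1-week groups, to 6-week SR9009 and to 6-week vehicle did not overlap.

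Aqp8 rose at 1 week by 1.58 ± 0.21 on the log2 scale in vehicle hearts, 2.99-fold (edgeR adjusted p = 7.99e-04), from 2.09 ± 0.364 CPM (SD, n = 3) to 6.22 ± 0.962 (SD, n = 4). The rise was 1.49 ± 0.21 in 1-week SR9009 hearts (edgeR adjusted p = 7.23e-04) and 2.44 ± 0.21 in 6-week SR9009 hearts (edgeR adjusted p = 5.6e-06). All of these comparisons use the same Control libraries, and their p-values are not independent of the selection. In TAC 6 week vehicle the level was 18.1 ± 4.37 CPM, a log2 difference of 3.11 ± 0.20 from Control, 8.65-fold, and of 1.53 ± 0.16 from TAC 1 week vehicle. Without TAC 6 week vehicle 1 these were 3.25 and 1.67. Within the SR9009 libraries Aqp8 rose by 0.95 ± 0.16 from 1 to 6 weeks, 1.93-fold (edgeR adjusted p = 0.00259). That rise passed without each of the 7 libraries in turn, with adjusted p between 0.00407 and 0.0231.

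**Figure D2:**
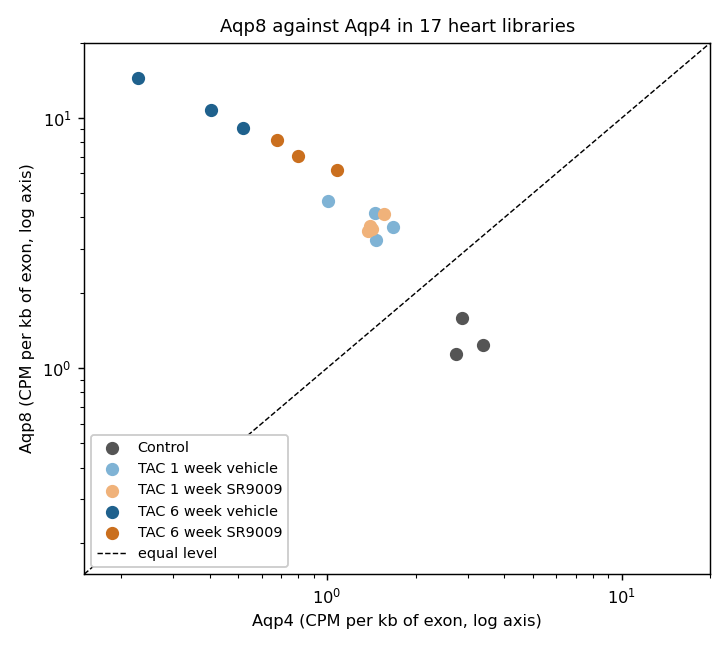
Level of Aqp8 (vertical) against Aqp4 (horizontal) in each of the 17 libraries, in CPM per kilobase of exon on log axes, coloured by group. The dashed line marks equal levels. The 3 Control libraries lie below it and the 14 TAC libraries above it, with TAC 6 week vehicle farthest from it.

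The opposite steps of both channels can be read in each library as a ratio. Per kilobase of exon, the Aqp8 level divided by the Aqp4 level was 0.55, 0.415 and 0.369 in Control. It was 2.19, 2.22, 4.62 and 2.88 in TAC 1 week vehicle and lay between 2.52 and 2.65 in TAC 1 week SR9009. At 6 weeks it was 17.6, 63.3 and 26.7 with vehicle and 8.89, 5.72 and 12.1 with SR9009. Aqp4 was thus the more abundant in each Control library and Aqp8 in each TAC library. Within both 6-week groups the library order of Aqp8 was the exact reverse of that of Aqp4, and within Control and both 1-week groups it was not. In TAC 1 week SR9009, library 1 was highest in both genes (Aqp8 6.51 and Aqp4 9.71 CPM). Library 4 of that group was lowest in both (5.56 and 8.57 CPM). Control 2 was the lowest Control library in both genes (1.8 and 17.1 CPM). Over the 17 libraries, which share the library totals behind both values, the deviations of Aqp8 and Aqp4 from their group means had a Pearson r of -0.768, given as a description.

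The Aqp8 promoter is shown because its gene had the largest rise of the 5 and because it alone among the 4 genes searched held the E-box CACGTG, the letters bound by the clock activators. The sequence is RefSeq's for GRCm38.p6, chr7:123462044-123462343 on the plus strand, with the E-box in capitals beginning 75 bases before the annotated start.
Aqp8 promoter: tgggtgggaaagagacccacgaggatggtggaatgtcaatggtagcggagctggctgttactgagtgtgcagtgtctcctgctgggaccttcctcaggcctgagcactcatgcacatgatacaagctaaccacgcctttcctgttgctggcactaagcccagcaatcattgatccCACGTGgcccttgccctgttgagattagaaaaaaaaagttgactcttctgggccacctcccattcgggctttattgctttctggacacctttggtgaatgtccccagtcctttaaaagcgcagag
Among 32544 promoters of this length, 7.17% held CACGTG on either strand. AGGTCA, the core letters of nuclear receptor sites, was found in 16.2% of promoters, Aqp7 and Aqp11 among them, and not in the windows of Aqp1 or Aqp8. The D-box cores TTATGTAA and TTACGTAA were in 1.05% of promoters and in none of the 4 genes' windows. Each of the 4 genes' windows held at most 1 kind of motif, and a match is a description of the letters only.

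Aqp1, the constitutive water channel of red cells and of vascular endothelium, was lower at 1 week and overlapped Control at 6 weeks in vehicle hearts. Control libraries had 412, 384 and 371 CPM. TAC 1 week vehicle libraries had 244, 294, 283 and 242 CPM, and TAC 1 week SR9009 libraries had 263, 184, 302 and 307 CPM. TAC 6 week vehicle libraries had 300, 359 and 442 CPM, and TAC 6 week SR9009 libraries had 273, 302 and 298 CPM. All 1-week libraries lay below the lowest Control library, and the TAC 6 week vehicle libraries spanned the Control range.

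Aqp1 fell at 1 week by 0.55 ± 0.14 in vehicle hearts (edgeR adjusted p = 0.0183) and by 0.56 ± 0.14 in SR9009 hearts (edgeR adjusted p = 0.0128), 1.46-fold and 1.47-fold. The first call was lost without Control 1 (adjusted p = 0.0768) or TAC 1 week vehicle 4 (0.0645), and the second without Control 1 (0.0571) or with the library total as a covariate (0.15). In 6-week SR9009 hearts the log2 difference from Control was -0.42 ± 0.16 (edgeR adjusted p = 0.139). In 6-week vehicle hearts it was -0.08 ± 0.15, and against TAC 1 week vehicle it was 0.47 ± 0.14, or 0.04 and 0.59 without TAC 6 week vehicle 1. Of 10 endothelial markers 2 rose at 1 week with vehicle (Pecam1 and Cdh5) and 0 fell, beside 8.91% and 5.92% of all genes. The summed level of the 10 markers was 1770 to 1872 CPM there against 1636 to 1710 in Control. With SR9009 at 1 week 1 rose and 0 fell (all genes 11.4% and 8.48%), and the sum was 1519 to 1759 CPM, reaching below and above Control. Of 6 erythrocyte markers tested 0 passed in TAC 1 week vehicle by edgeR (14.8% of all genes in either direction). At an unadjusted p under 0.05 there were 0 (4956 of 15931 genes), and DESeq2 called 0 (2444 genes). The summed list was 305 to 529 CPM there against 359 to 648 in Control. In TAC 1 week SR9009 0 passed by edgeR (19.9% of all genes). There 1 had an unadjusted p under 0.05 (5445 genes) and DESeq2 called 1 (3072 genes), with a sum of 338 to 1677 CPM. The part of both cell types in the Aqp1 result was not tested.

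Aqp7, the glycerol channel, was the second most abundant in Control. Control libraries had 28.7, 33.2 and 29.2 CPM. TAC 1 week vehicle libraries had 23.4, 27.5, 21.8 and 19.8 CPM, and TAC 1 week SR9009 libraries had 21.4, 15.5, 17.2 and 24 CPM. TAC 6 week vehicle libraries had 26, 13.4 and 12.0 CPM, and TAC 6 week SR9009 libraries had 23.3, 32.3 and 26 CPM. Each 1-week library and each 6-week vehicle library was below the Control range, while the 6-week SR9009 libraries overlapped it. The first of the 6-week vehicle libraries lay well above the other 2 libraries of its group.

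The log2 difference of Aqp7 from Control was -0.40 ± 0.21 in 1-week vehicle hearts (edgeR adjusted p = 0.213) and -0.16 ± 0.22 in 6-week SR9009 hearts (edgeR adjusted p = 0.758). Aqp7 fell by 0.64 ± 0.21 in 1-week SR9009 hearts (edgeR adjusted p = 0.0409), a call lost in 6 of the 7 fits that left out 1 library, where adjusted p reached 0.128. In 6-week vehicle hearts the log2 difference was -0.82 ± 0.23, and -1.26 without TAC 6 week vehicle 1. Of 8 adipocyte markers 2 passed the filter, Fabp4, which capillaries also express, at 354 to 597 CPM and Cfd at no more than 2.07 CPM. The defining markers Adipoq and Plin1 reached 0.545 and 0.18 CPM at most. The summed list was 355 to 408 CPM in Control, 439 to 560 in TAC 1 week vehicle, 458 to 597 in TAC 1 week SR9009, 464 to 558 in TAC 6 week vehicle and 430 to 452 in TAC 6 week SR9009, and its part in the Aqp7 result was not tested.

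Aqp11, an intracellular channel of the endoplasmic reticulum that kidney tubule cells need, was too low for differences of this size to be resolved. Control libraries had 1.04, 0.899 and 1.14 CPM. Over the other groups the means were 0.745 ± 0.25 CPM in TAC 1 week vehicle (SD, n = 4), 1.06 ± 0.261 in TAC 1 week SR9009 (SD, n = 4), 0.854 ± 0.233 in TAC 6 week vehicle (SD, n = 3) and 0.903 ± 0.282 in TAC 6 week SR9009 (SD, n = 3). All 4 groups overlapped Control, and its largest log2 difference from Control was -0.47 ± 0.34 (edgeR adjusted p = 0.398), in 1-week vehicle hearts.

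**Figure D3:**
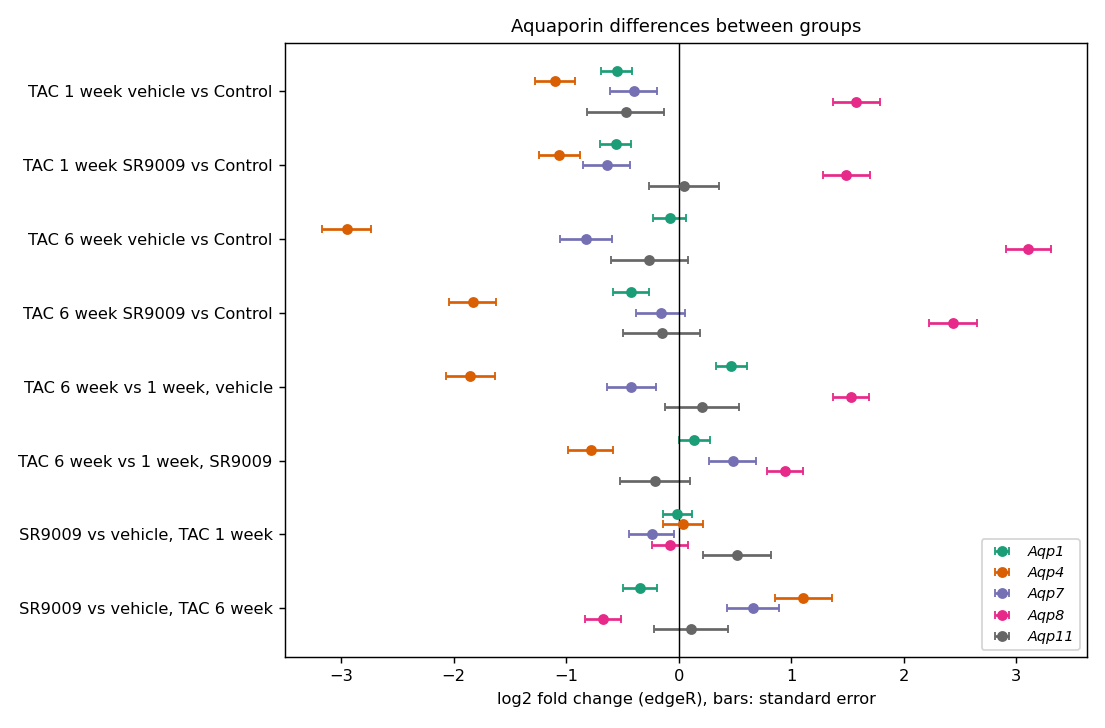
Log2 fold change of the 5 aquaporins (horizontal axis) in 8 comparisons between groups (vertical axis), from the edgeR fit of all 17 libraries; bars are standard errors. Aqp4 lies at -1.10 and -2.95 and Aqp8 at 1.58 and 3.11 in vehicle hearts at 1 and 6 weeks against Control, and Aqp1 at -0.55 and -0.08.

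Counted over all genes, 1 of the 5 aquaporins rose and 2 fell in TAC 1 week vehicle against Control, where 8.91% of 15931 genes tested rose and 5.92% fell. In TAC 1 week SR9009 1 rose and 3 fell, beside 11.4% and 8.48% of all genes. In TAC 6 week SR9009 1 rose and 1 fell, beside 2.6% and 1.78%. From 1 to 6 weeks with SR9009 1 rose and 1 fell, beside 3.29% and 5.66%. In the pair of comparisons whose values were known beforehand, 1 rose and 2 fell in TAC 6 week vehicle against Control (all genes 10.7% and 9.96%) and 2 rose and 1 fell against TAC 1 week vehicle (all genes 6.18% and 5.9%), and nothing is read from those counts. Without TAC 6 week vehicle 1 they were 1 up and 2 down (all genes 13.1% and 12.1%) and 2 up and 2 down (all genes 8.47% and 7.85%).

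SR9009 made no detectable difference to any of the 5 genes at 1 week. The log2 differences between SR9009 and vehicle were -0.01 ± 0.13 for Aqp1, 0.04 ± 0.18 for Aqp4, -0.24 ± 0.20 for Aqp7, -0.08 ± 0.16 for Aqp8 and 0.52 ± 0.30 for Aqp11, and edgeR adjusted p was at least 0.813. The groups overlapped for each gene, and 0 of the 5 had an unadjusted p under 0.05. DESeq2 gave an adjusted p for Aqp1 alone, 0.997. Over all genes edgeR called 0 of 15931 in this comparison (0%), with 1019 at an unadjusted p under 0.05, and DESeq2 called 11.

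At 6 weeks, hearts given SR9009 had more Aqp4 and less Aqp8 than vehicle hearts in every library. These values include the group in which Aqp4 was lowest and Aqp8 highest, for which both were selected, so they are a description. Aqp4 was at 5.3 ± 1.29 CPM with SR9009 and 2.39 ± 0.908 with vehicle (SD, n = 3 each), a log2 difference of 1.11 ± 0.25. Aqp8 was at 11.3 ± 1.6 CPM with SR9009 and 18.1 ± 4.37 with vehicle (SD, n = 3 each), a log2 difference of -0.67 ± 0.16. Aqp7 was at 27.2 ± 4.66 and 17.2 ± 7.7 CPM (SD, n = 3 each), a log2 difference of 0.66 ± 0.23. Aqp1 and Aqp11 differed by -0.34 ± 0.15 and 0.11 ± 0.33. Of the 5, 0 were called by edgeR and 2 by DESeq2, beside 0.169% of all genes by edgeR (27 genes, with 2498 at an unadjusted p under 0.05) and 264 genes by DESeq2. The groups did not overlap for 2 of the 5, Aqp4 and Aqp8, and for 19.8% of all genes tested, and nothing is read from these counts.

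TAC 6 week vehicle 1, the library that stood apart in clock genes and Myh7, bore on this comparison. Its Arntl of 42.8 CPM lay near those of the TAC 6 week SR9009 libraries, at 41, 27.5 and 33 CPM, and so did its Aqp7 of 26 CPM. The vehicle libraries left without it had Arntl at 3.57 and 2.72 CPM and Per2 at 58.9 and 67.2 CPM. In TAC 6 week SR9009 Per2 was at 7.66 to 9.55 CPM, so clock genes then differed between both groups as well. Without TAC 6 week vehicle 1 the log2 differences between SR9009 and vehicle were 1.38 for Aqp4, 1.09 for Aqp7 and -0.81 for Aqp8. Over all genes the calls rose from 27 to 1482 without it, 9.2% of 16102 genes tested. These 3 of the 5 aquaporins were among them, and nothing is read from that, since values of the vehicle group were known at selection. When any of the other 5 libraries was left out, 0 of the 5 were called, beside 2 to 47 of all genes. The part of clock state in the result, with or without this library, was not tested.

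**Figure D4:**
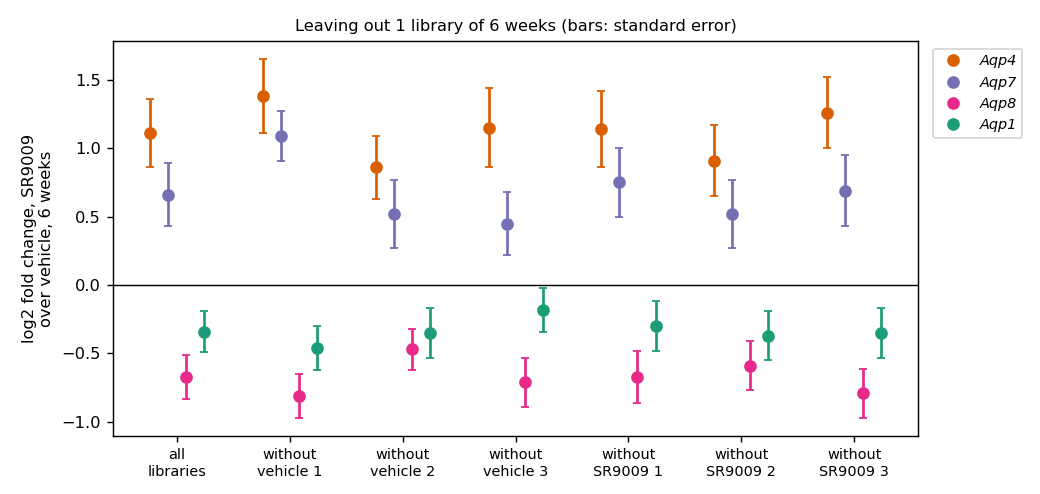
Log2 fold change of SR9009 over vehicle at 6 weeks (vertical axis) for Aqp4, Aqp7, Aqp8 and Aqp1 with all libraries and with each of the 6 libraries of both groups left out in turn (horizontal axis). Bars are standard errors. Aqp4 and Aqp7 stay above 0 and Aqp8 and Aqp1 below it in all 7 fits, and without vehicle 1 the values are 1.38 for Aqp4, 1.09 for Aqp7 and -0.81 for Aqp8.

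The difference of the SR9009 effect between 6 weeks and 1 week was estimated as an interaction, which also uses TAC 6 week vehicle and is described without a test. It was 1.07 ± 0.30 for Aqp4, 0.90 ± 0.30 for Aqp7, -0.59 ± 0.23 for Aqp8, -0.33 ± 0.21 for Aqp1 and -0.41 ± 0.45 for Aqp11. By edgeR 0 of the 5 were called, beside 0.119% of all genes (19 genes, with 2264 at an unadjusted p under 0.05), and by DESeq2 1 of the 5 and 187 genes. Without TAC 6 week vehicle 1 the value was 1.34 for Aqp4, 1.33 for Aqp7 and -0.73 for Aqp8. Then 2 of the 5 were called beside 5.94% of all genes (957 genes), and nothing is read from these counts.

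Mesothelial markers, genes of the outer lining of the heart, were among the lists that also differed between 1 and 6 weeks. Of 6 markers 5 fell in TAC 6 week vehicle against Control, with and without TAC 6 week vehicle 1 (9.96% and 12.1% of all genes). From 1 to 6 weeks 5 fell with vehicle (5.9% of all genes), also without TAC 6 week vehicle 1 (7.85%), and 5 with SR9009 (5.66%). Against Control 1 fell in TAC 1 week SR9009 (8.48% of all genes) and 5 in TAC 6 week SR9009 (1.78%). In TAC 1 week vehicle against Control 0 fell by edgeR (5.92% of all genes), 0 had an unadjusted p under 0.05 and 0 were called by DESeq2. The summed level of the 6 markers was 62.9 to 76.3 CPM in Control, 48.8 to 61.7 in TAC 1 week vehicle, 31.5 to 54.7 in TAC 1 week SR9009, 12.9 to 20.1 in TAC 6 week vehicle and 10.3 to 25.9 in TAC 6 week SR9009. Among them Upk3b was at a mean of 23.3 CPM in Control and 2.08 CPM in TAC 6 week vehicle, while Wt1 was at 11.1 and 10.5 CPM. The 6-week groups overlapped in this sum and did not overlap in Aqp4. The part of mesothelial RNA in the Aqp4 result was not tested. Macrophage markers, at 258 to 272 CPM summed in Control, were at 374 to 450 in TAC 1 week vehicle, 391 to 594 in TAC 1 week SR9009, 365 to 429 in TAC 6 week vehicle and 293 to 334 in TAC 6 week SR9009. Against Control 6 of 6 macrophage markers rose in TAC 1 week vehicle (8.91% of all genes) and 6 in TAC 1 week SR9009 (11.4%). In TAC 6 week vehicle 5 rose (10.7%), also without TAC 6 week vehicle 1 (13.1%). In TAC 6 week SR9009 0 passed by edgeR (4.38% of all genes in either direction). There 2 had an unadjusted p under 0.05 (3062 of 15931 genes) and DESeq2 called 0 (859 genes). From 1 to 6 weeks 6 fell with SR9009 (5.66% of all genes). With vehicle 0 passed by edgeR (12.1% of all genes in either direction). There 2 had an unadjusted p under 0.05 (4338 of 15931 genes) and DESeq2 called 1 (2054 genes). Without TAC 6 week vehicle 1 also 0 rose and 0 fell (all genes 8.47% and 7.85%). The part of macrophage RNA in the Aqp8 result was not tested.

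The dystrophin complex anchors AQP4 at the membrane. Of its 13 genes tested 3 rose and 1 fell in TAC 6 week vehicle against Control, beside 10.7% and 9.96% of all genes, with a median log2 difference of 0.09 against -0.01 over all genes. Dmd, which encodes dystrophin, rose by 0.26 ± 0.06 (edgeR adjusted p = 0.00532), from 932 ± 9.03 to 1117 ± 7.74 CPM (SD, n = 3 each). Without TAC 6 week vehicle 1 also 3 rose and 1 fell (all genes 13.1% and 12.1%), and Dmd rose by 0.26 ± 0.07 (edgeR adjusted p = 0.00757). At 1 week with vehicle 3 of them rose and 0 fell (all genes 8.91% and 5.92%). From 1 to 6 weeks with vehicle 1 rose, Dtna, and 1 fell (all genes 6.18% and 5.9%). The gene that fell was Sntb1, a beta-syntrophin, by 0.50 ± 0.15 (edgeR adjusted p = 0.0342). Without TAC 6 week vehicle 1, 2 rose and 1 fell (all genes 8.47% and 7.85%). The log2 difference of Sntb1 was then -0.58 ± 0.17 (edgeR adjusted p = 0.0265).

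Genes of glycerol and triglyceride handling, the pathway of AQP7 (20 tested), moved in both directions. In TAC 1 week vehicle 1 rose and 5 fell (all genes 8.91% and 5.92%), with a median of -0.17 against -0.004 over all genes. In TAC 1 week SR9009 1 rose and 8 fell (all genes 11.4% and 8.48%). In TAC 6 week vehicle 4 rose and 2 fell (all genes 10.7% and 9.96%), also without TAC 6 week vehicle 1 (all genes 13.1% and 12.1%). In TAC 6 week SR9009 0 passed by edgeR (all genes 2.6% up and 1.78% down), 5 had an unadjusted p under 0.05 and DESeq2 called 1. G0s2, an inhibitor of the lipase ATGL, fell by 0.95 ± 0.17 in TAC 6 week vehicle (edgeR adjusted p = 0.00094), from 42.0 ± 5.53 to 21.7 ± 5.65 CPM (SD, n = 3 each). Its fall without TAC 6 week vehicle 1 was 1.15 ± 0.17 (edgeR adjusted p = 0.00014). Fabp4, a fatty acid carrier of capillaries and fat cells, rose by 0.43 ± 0.10 (edgeR adjusted p = 0.00694), from 377 ± 26.6 to 507 ± 48.0 CPM (SD, n = 3 each). Without TAC 6 week vehicle 1 Fabp4 rose by 0.49 ± 0.11 (edgeR adjusted p = 0.00333). Gpam, the first enzyme of triglyceride synthesis, rose from 1 to 6 weeks with vehicle by 0.41 ± 0.09 (edgeR adjusted p = 0.00571). Its rise without that library was 0.48 ± 0.09 (edgeR adjusted p = 0.00161).

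Genes of cell volume and osmolyte handling (21 tested) rose in 7 cases and fell in 0 in TAC 6 week vehicle against Control. Over all genes 10.7% rose and 9.96% fell. Without TAC 6 week vehicle 1 the list had 8 and 0, beside 13.1% and 12.1% of all genes. In TAC 1 week vehicle 1 rose and 1 fell (all genes 8.91% and 5.92%). In TAC 1 week SR9009 2 rose and 3 fell (all genes 11.4% and 8.48%). In TAC 6 week SR9009 1 rose and 0 fell (all genes 2.6% and 1.78%). The taurine transporter Slc6a6 rose by 0.44 ± 0.11 (edgeR adjusted p = 0.0107), from 160 ± 6.51 to 217 ± 34.6 CPM (SD, n = 3 each), and by 0.56 ± 0.11 without TAC 6 week vehicle 1 (edgeR adjusted p = 0.00102). The sodium, potassium and chloride cotransporter Slc12a2 rose by 0.28 ± 0.07 (edgeR adjusted p = 0.0109). Without that library Slc12a2 rose by 0.3 ± 0.08 (edgeR adjusted p = 0.0108). With all libraries the median of the list was 0.06. Oxsr1, a kinase that activates such cotransporters, rose by 0.24 ± 0.08 from 1 to 6 weeks with vehicle (edgeR adjusted p = 0.0435). Its rise without that library was 0.26 ± 0.08 (edgeR adjusted p = 0.0424). From 1 to 6 weeks with vehicle 1 gene of the list rose and 0 fell (all genes 6.18% and 5.9%). Without TAC 6 week vehicle 1, 6 rose and 1 fell (all genes 8.47% and 7.85%).

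Of 13 carbonic anhydrase and acid-base transporter genes 0 rose and 3 fell in TAC 6 week vehicle (all genes 10.7% and 9.96%), with a median of -0.24. Without TAC 6 week vehicle 1, 0 rose and 4 fell (all genes 13.1% and 12.1%). Slc4a4, the sodium bicarbonate cotransporter, fell by 0.35 ± 0.07 (edgeR adjusted p = 0.00305) and Slc4a3, an anion exchanger of heart muscle, by 0.51 ± 0.13 (edgeR adjusted p = 0.00981). Without that library the log2 difference of Slc4a4 was -0.39 ± 0.08 (edgeR adjusted p = 0.00198). For Slc4a3 it was then -0.58 ± 0.14 (edgeR adjusted p = 0.00683). At 1 week with vehicle 0 rose and 2 fell (all genes 8.91% and 5.92%). In both comparisons of SR9009 with vehicle 0 of the 67 genes of these 4 lists passed by edgeR, beside 0% of all genes at 1 week and 0.169% at 6 weeks. At an unadjusted p under 0.05 there were 8 at 1 week and 13 at 6 weeks, beside 1019 and 2498 of 15931 genes. DESeq2 called 0 and 1, beside 11 and 264 of all genes. The 6-week comparison without TAC 6 week vehicle 1 called 1 gene up and 2 down in the glycerol list and 3 up and 6 down in the cell volume list. It called 9.2% of all genes in either direction.

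The genes most like each channel over the 17 libraries were found among 10721 candidates (10722 for Aqp11) with a mean of at least 5 CPM. They are described by Pearson's r of log2 CPM and by r of the deviations from group means, with no test. For Aqp8 these were Edn3, an endothelin gene (0.97, and 0.561 for deviations), Cdv3 (0.965 and 0.623) and Slain2 (0.961 and 0.668). For Aqp4 they were Nhsl1 (0.944 and 0.558), Ptprd (0.935 and 0.504) and Magi3 (0.934 and 0.584). For Aqp7 they were Myo5c (0.959 and 0.918), Etl4 (0.941 and 0.92) and Cecr2 (0.941 and 0.896). For Aqp1 they were Pygb, a glycogen phosphorylase (0.944 and 0.896), Dgat2, an enzyme of triglyceride synthesis (0.93 and 0.863), and Zyg11b (0.923 and 0.903). For Aqp11 they were Oser1 (0.755 and 0.677), Slc37a1 (0.705 and 0.658) and Asna1 (0.697 and 0.797). For Aqp1 and Aqp7 the likeness was nearly as high within groups as over all libraries, and for Aqp4 and Aqp8 it was lower within groups. All libraries share their group's condition, and part of each pooled r is that shared step.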

How the data were processed

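RNA-seq of total RNA from mouse heart was analysed in 17 libraries. The authors deposited 1 table per library with raw fragments per gene, which per the file headers follows Cuffdiff's per-replicate output and holds estimated counts with no scaling by the authors. Between 2289 and 2678 values per library were not whole, and all were rounded. Per the submitters' processing notes, reads were placed on mm10. The sources used here name no aligner or annotation. Per the labels, a TruSeq RNA kit was used, which does not mark strand. Of the gene IDs, 40252 matched GENCODE M21, which gave symbols and exon lengths. The 78 genes whose status was HIDATA in any library were left out.

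Counts were fitted with edgeR 4.0.16 (R 4.3.3; quasi-likelihood test, TMM, filterByExpr, 15931 genes tested, 12 residual degrees of freedom) in 1 model of 5 group means. Adjusted p-values are Benjamini-Hochberg values over all genes tested, two-sided, with a threshold of 0.05, and called, rose and fell refer to it. CPM are counts scaled to a common library total. DESeq2 1.42.0, other filters and scaling, left-out libraries, a replicate block and the library total were tried as alternatives. The gene lists without TAC 6 week vehicle 1 were fitted as an alternative chosen after seeing the data. Same-numbered libraries did not deviate together: of 31 pairs 1 had a correlation over 0.1 (median 0.018), so numbers were not taken as pairing.

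The members, gene lists and tests were chosen with earlier results of these data known. Named genes were the 5 members, the other aquaporins, for each pathway list the 2 smallest p in TAC 6 week vehicle against Control and the smallest in TAC 6 week against 1 week with vehicle, if called, and the 3 genes with the highest r to each member. Dtna, Pecam1, Cdh5, the clock genes and the markers named beside results were chosen after their values were seen. The values of a list member that the rule took are not reported here.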

Additional observations from a re-analysis of the deposited data

How the results depend on the processing

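For SR9009 against vehicle at 6 weeks, 0 were called in the fit of all libraries (27 genes in all), 2 with no filter on low counts (242), 2 with DESeq2 (264) and 4 (2160) without 3 libraries together that an earlier analysis had set apart (Control 2, the second of TAC 1 week SR9009, and TAC 6 week vehicle 1). For the interaction the count was 0 (19 genes in all), 3 without those libraries together (1058) and 1 with DESeq2 (187). With the library total as a covariate, 1 was called in TAC 1 week SR9009 against Control in place of 4, and 233 genes in place of 3175; in TAC 6 week vehicle against Control that setting called 235 genes in place of 3292. The replicate block lowered 3 counts. From 1 to 6 weeks with SR9009, 1 was called in place of 2 (edgeR adjusted p of Aqp4 0.0581), and 782 genes in place of 1426. In TAC 1 week SR9009 against Control it was 3 in place of 4, and 2340 genes in place of 3175. From 1 to 6 weeks with vehicle it was 2 in place of 3, and 1511 genes in place of 1925. Labels do not say that numbers pair the samples. In the alternative chosen after seeing the data, the gene lists without TAC 6 week vehicle 1, endothelial markers had 1 up and 4 down against Control in place of 1 and 0, and 1 up and 3 down against TAC 1 week vehicle in place of 1 and 1. Over all genes 13.1% were then up and 12.1% down against Control, and 8.47% and 7.85% against TAC 1 week vehicle. The causes were not tested.

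Leaving out each library in turn gave these counts of the 5 called, with the range of all genes called in brackets. Against Control they were 2 to 3 in TAC 1 week vehicle (993 to 3117) and in TAC 6 week vehicle (1878 to 4062). Against Control they were also 2 to 4 in TAC 1 week SR9009 (1589 to 3578) and 2 to 2 in TAC 6 week SR9009 (232 to 613). From 1 to 6 weeks they were 2 to 4 with vehicle (751 to 2628) and 1 to 2 with SR9009 (447 to 2025). For SR9009 against vehicle they were 0 to 0 at 1 week (0 to 3) and 0 to 3 at 6 weeks (2 to 1482). The interaction had 0 to 2 (1 to 957). Between 1 and 6 weeks with vehicle, the log2 difference of Aqp1 was 0.31 to 0.59 over the 7 such fits, given as a description.

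Some small differences that did not pass changed sign. For Aqp11 in TAC 1 week SR9009 against Control the log2 value was -0.04 without Control 2, -0.10 without TAC 1 week SR9009 2, -0.19 without the 3 libraries together and -0.06 with the library total, with leave-one-out values up to 0.17. For Aqp11 with SR9009 at 6 weeks it was -0.10 without TAC 6 week vehicle 1, -0.21 without TAC 6 week SR9009 3 and -0.10 without the 3 together, with leave-one-out values up to 0.26. For Aqp1 with SR9009 at 1 week it was 0.04 without TAC 1 week vehicle 2, 0.02 without vehicle 3, 0.13 without SR9009 2, 0.13 without the 3 together and 0.02 with the library total. Aqp4 with SR9009 at 1 week was -0.09 without TAC 1 week vehicle 3. Aqp1 in TAC 6 week vehicle against Control was 0.04 without TAC 6 week vehicle 1 and 0.03 without the 3 together, with leave-one-out values down to -0.24. With the library total, Aqp7 was 0.01 in TAC 6 week SR9009 against Control and 0.04 with SR9009 at 1 week. Depth limited Aqp11, at 4 to 19 fragments per library, and Aqp4 at 6 weeks.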
